A study of Mus musculus with 10 samples.

Results

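Natural killer (NK) cells read the surface of other cells through activating and inhibitory receptors, most of which are C-type lectin-like proteins encoded together in the NK gene complex of mouse chromosome 6. T cells can acquire the same receptors during effector differentiation, and Klrg1, an inhibitory receptor for cadherins, is widely used as a mark of terminally differentiated effector T cells. The account below covers 8 such genes, Klrg1, Klrk1, Klrd1, Klrc1, Klrc2, Klri2, Klrb1c and Ncr1, among 17363 named genes of the table of normalized counts. They were taken by name, and the choice was made with earlier results of these libraries known, so the list was in effect selected on its response to loss of Tgfbr2. Levels of the 8 genes across Tgfbr2 genotypes are therefore given as a description with no test. Ncr1 encodes NKp46, an immunoglobulin-type receptor, so the label of a lectin family covered 7 of the 8.

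The libraries came from CD4+CD25- T cells sorted from breast tumours of PyMT mice, which carry a viral oncogene driven in mammary epithelium, at 23 weeks of age on the C57BL/6 strain. All mice carried floxed Tgfbr2, the gene of the type II TGF-beta receptor. WT mice had no Cre, KO mice had ThPOK-Cre, which deletes floxed genes in cells of the CD4 lineage, IL4-/- mice lacked Il4 and had no Cre, and IL4-/-KO mice lacked Il4 and carried ThPOK-Cre. Each of the 4 genotypes had 2 replicates, and the RNA of each KO replicate was made into a library a second time, here called the repeat library, for 10 libraries in all. The sources did not say that replicates came from separate mice, so every p-value measures only the spread among these samples, which may be technical.

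Depth differed by set. Between 17121030 and 18479090 reads were recovered for WT and the first KO libraries, and the repeat KO, IL4-/- and IL4-/-KO libraries held 28003231 to 33802781. At these depths 1 read was worth 0.644 to 1.47 normalized counts, and a value of 0 allowed up to 3 reads, a limit that covers counting error only. The repeat library of KO replicate 2 lay far from all others on the first principal component (226.5, the rest between -89.5 and 69.2) and had the fewest detected genes, 12459. Cd4 lay between 12165 and 40172 normalized counts in the 10 libraries and Cd8a between 0 and 783. Tgfbr2 lay at 7876 and 7894 in WT, 5803 to 9442 in the 4 KO libraries, 13816 and 12544 in IL4-/-, and 7762 and 8205 in IL4-/-KO, while Il4 RNA lay at 107 and 276 in WT, 236 to 523 in KO, 97.2 and 75.4 in IL4-/-, and 98.7 and 39.7 in IL4-/-KO. The IL4-/- values were thus little below WT replicate 1. A count over a whole gene includes exons outside a deleted part, so neither check tests the labels closely.

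The genes are listed here by their place and partners. In the mm10 build Klrg1 lay on chromosome 6 from 122270596 to 122282882 on the minus strand. The 6 other chromosome 6 genes lay 6.5 Mb away within 0.962 Mb, in the order Klrb1c, Klrd1, Klrk1, Klrc2, Klrc1 and Klri2. Of these, Klrd1 (129591782 to 129598775) was on the plus strand, and Klrb1c (128778485 to 128789215), Klrk1 (129610323 to 129623864), Klrc2 (129647496 to 129660689), Klrc1 (129666015 to 129678973) and Klri2 (129729041 to 129740484) were on the minus strand. Ncr1 lay on the plus strand of chromosome 7 from 4337724 to 4345164. The Klrc genes are near copies, and 40.3% of the 50-base stretches of the Klrc1 transcript and 30.1% of those of Klrc2 also occurred in another gene, mostly in each other. The share was 18.1% for Klrb1c, mostly in the overlapping gene Gm44511, 2.77% for Klri2, and 0 for Klrg1, Klrk1, Klrd1 and Ncr1. How reads from shared stretches were counted was not given in the sources used here, so values of Klrc1, Klrc2 and Klrb1c are uncertain in that respect.

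RefSeq promoters, 250 bases before to 50 bases after the start of transcription, were at hand for 5 of the 8 genes in the GRCm38.p6 assembly, the patched form of mm10. The promoters of Klrb1c and Klrk1 are shown because the levels of these genes differed in opposite directions between KO and WT. Capitals mark matches on either strand to CAGAC, a box bound by the SMAD factors that act downstream of TGF-beta receptors, and to TGTGGT, the core bound by RUNX factors.
Klrb1c, chr6:128788592-128788891, minus strand: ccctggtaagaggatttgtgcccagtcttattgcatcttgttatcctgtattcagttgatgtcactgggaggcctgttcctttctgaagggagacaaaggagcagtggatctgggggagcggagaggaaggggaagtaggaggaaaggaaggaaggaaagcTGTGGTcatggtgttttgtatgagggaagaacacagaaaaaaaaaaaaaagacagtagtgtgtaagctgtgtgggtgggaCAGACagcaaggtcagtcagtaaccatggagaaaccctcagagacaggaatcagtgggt
Klrk1, chr6:129623815-129624114, minus strand: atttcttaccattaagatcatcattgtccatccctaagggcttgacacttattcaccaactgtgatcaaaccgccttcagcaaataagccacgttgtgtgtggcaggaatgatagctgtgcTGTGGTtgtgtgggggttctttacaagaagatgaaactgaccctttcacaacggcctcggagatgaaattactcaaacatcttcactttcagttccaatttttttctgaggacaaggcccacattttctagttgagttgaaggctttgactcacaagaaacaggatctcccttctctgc
The Klrb1c window held 1 match to CAGAC and 1 to TGTGGT, and the Klrk1 window held 1 to TGTGGT and 0 to CAGAC. All 5 windows, those of Klrk1, Klrc1, Klrc2, Klrb1c and Ncr1, held TGTGGT, which occurred in 16.8% of the 32851 promoters of the same length. CAGAC occurred in 3 of the 5, those of Klrc2, Klrb1c and Ncr1, against 49.6% of all promoters. TCACACC, the site of T-box factors such as T-bet, occurred in 0 of the 5, against 3.98% of all promoters. The 3 motifs did not overlap in letters, and a match is a description of the sequence only.

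Klrg1 was high in every library with Tgfbr2 deleted, with Il4 present or absent. Its normalized counts were 339 and 206 in WT and 428.5 and 515 in IL4-/-. In KO replicate 1 the first and repeat libraries gave 2976 and 2745, and in KO replicate 2 they gave 5493 and 4928. IL4-/-KO gave 7198 and 7600, the highest Klrg1 values of the series. All 6 libraries with Tgfbr2 deleted thus lay above the 4 without, and no group of libraries overlapped another across the deletion. The repeat libraries of the same RNA lay close to the first ones. As a description, the log2 difference on the log2(normalized count + 1) scale was 3.86 ± 0.40 (SE, n = 2 per group) for KO minus WT, a 14.6-fold ratio. It was 3.97 ± 0.40 for IL4-/-KO minus IL4-/-, a 15.7-fold ratio.

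The test of whether the deletion differed by Il4 background, the interaction, is made from the deletion differences that were known when the genes were chosen, so its p-values are not independent of that choice. It gave 0.11 ± 0.57 for Klrg1 (limma adjusted p = 0.996). Its 95% interval, for this gene alone, ran from -1.20 to 1.43, so differences within that range were not excluded. Larger differences can also fail adjustment over all genes, as those of other receptor genes did below. Leaving out WT replicate 1, KO replicate 1 or IL4-/- replicate 1 turned the sign of the Klrg1 interaction, to -0.25, -0.32 and -0.02. The order of Klrg1 levels was WT, IL4-/-, KO and IL4-/-KO, at 272 ± 94, 472 ± 61, 4035 ± 1662 and 7399 ± 284 normalized counts (mean ± SD, n = 2). By limma, neighbours on the same side of the deletion were not told apart after adjustment, although their libraries did not overlap. Both IL4-/-KO replicates lay above both KO replicates for 22.8% of all genes tested. IL4-/- minus WT was 0.83 ± 0.40 (limma adjusted p = 1) and IL4-/-KO minus KO was 0.94 ± 0.40 (limma adjusted p = 0.394).

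Klrb1c, the NK1.1 antigen and an activating receptor of NK cells and some T cells, had the pattern nearest to Klrg1 among the other 7 genes. It had 85.6 and 168 normalized counts for WT, 1069 and 989 in KO replicate 1, and 456 and 162 in KO replicate 2. With Il4 absent it had 377 and 57.3 without the deletion and 904 and 989 with it. The repeat library of KO replicate 2 lay within the WT range, and the mean of that replicate did not clear IL4-/- replicate 1, so the deleted and other replicates overlapped. The difference was 2.13 ± 0.997 for KO minus WT and 2.67 ± 0.997 for IL4-/-KO minus IL4-/-, with no call on either because the choice of genes used them. The interaction was 0.54 ± 1.41 (limma adjusted p = 0.989), and it was -0.27 by both edgeR and DESeq2.

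**Figure D1:**
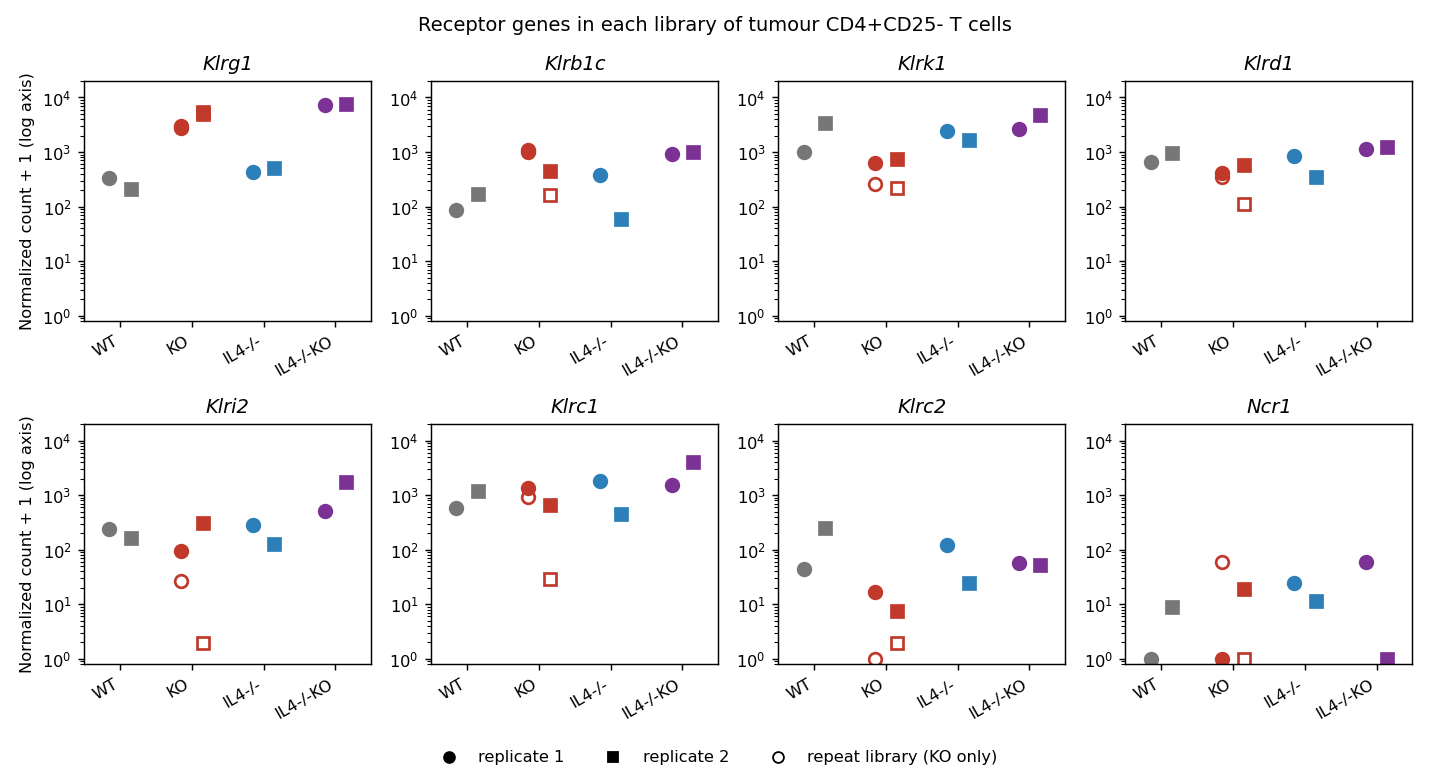
Normalized count + 1 (log axis) of the 8 receptor genes in each library, by genotype, with circles for replicate 1, squares for replicate 2 and open symbols for the repeat KO libraries. Klrg1 separates libraries by the deletion (206 to 515 without, 2745 to 7600 with), while Klrk1 is lowest in the 4 KO libraries (217 to 747).

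Klrk1 encodes NKG2D, an activating receptor for stress-induced ligands that is also carried by activated T cells. Its normalized counts were 1005 and 3464 in WT, 640 and 255 in KO replicate 1, first library before repeat, and 747 and 217 in KO replicate 2. They were 2415.5 and 1631 in IL4-/- and 2587 and 4752 in IL4-/-KO. The 4 KO libraries were the lowest of the 10, and both IL4-/-KO libraries lay above both IL4-/- libraries. The repeat library was below the first library of the same RNA in both KO replicates. The difference was -2.21 ± 0.59 for KO minus WT and 0.82 ± 0.59 for IL4-/-KO minus IL4-/-.

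Klrd1 encodes CD94, the partner with which NKG2A and NKG2C reach the cell surface. It had 645 and 956 normalized counts for WT, 416 and 348 in KO replicate 1, 588 and 111 in KO replicate 2, 851 and 344 in IL4-/-, and 1125.5 and 1230.4 in IL4-/-KO. The 4 KO libraries lay below WT, and IL4-/-KO lay above all others. The differences were -1.33 ± 0.52 for KO minus WT and 1.12 ± 0.52 for IL4-/-KO minus IL4-/-.

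Klrc1 encodes the inhibitory NKG2A and Klrc2 the activating NKG2C, which pair with CD94 to bind the class I molecule Qa-1. Klrc1 had 589 and 1204 normalized counts for WT, 1345 and 913 in KO replicate 1, 668 and 28.4 in KO replicate 2, 1856 and 451 in IL4-/-, and 1530.1 and 4122 in IL4-/-KO. IL4-/-KO lay above the WT and KO libraries, the other groups overlapped, and the libraries of KO replicate 2 were far apart although made from the same RNA. Klrc2 was low throughout, with 43.5 and 251 in WT, 16.2 and 0 in KO replicate 1, 6.57 and 0.946 in KO replicate 2, 121 and 23.2 in IL4-/-, and 57.2 and 51.3 in IL4-/-KO. All 4 KO libraries lay below the other 6, and the value of 0 and that of 0.946 were at or under the limit that a count of 0 allows. KO minus WT was -1.10 ± 1.07 for Klrc1 and -4.73 ± 1.33 for Klrc2, and IL4-/-KO minus IL4-/- was 1.46 ± 1.07 and 0.02 ± 1.33. With counts this low the fitted Klrc2 difference depends on the added count of 1.

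Klri2 encodes a lectin-like receptor that in rats pairs with the product of Klre1. It had 238 and 165 normalized counts for WT, 95.6 and 25.5 in KO replicate 1, 303 and 0.946 in KO replicate 2, 279 and 125 in IL4-/-, and 514 and 1766 in IL4-/-KO. The first library of KO replicate 2 lay above WT and its repeat library held 1 read, so the KO libraries overlapped WT. KO minus WT was -2.51 ± 0.85 and IL4-/-KO minus IL4-/- was 2.35 ± 0.85. Ncr1 was near the limit of detection, with 0 and 7.92 in WT, 0 and 58.6 in KO replicate 1, 18.4 and 0 in KO replicate 2, 23.5 and 10.3 in IL4-/-, and 58.7 and 0 in IL4-/-KO. It was at 0 in 4 of the 10 libraries and in every genotype but IL4-/- at least once, and no order of genotypes could be read from it.

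Levels per kilobase of the longest coding transcript can be compared between genes. On that scale Klrg1 had the highest mean of the 8 genes in KO and IL4-/-KO, and not in WT or IL4-/-. The values are means of 2 replicates. In WT and IL4-/- the order of Klrd1, Klrk1 and Klrc1 differed between the replicates, so no leading receptor is read there. In WT the mean level was 871 normalized counts per kilobase for Klrd1, 699 for Klrk1, 452 for Klrc1 and 193 for Klrg1. In IL4-/- it was 650 for Klrd1, 633 for Klrk1, 581 for Klrc1 and 334 for Klrg1. In KO it was 2854 for Klrg1, with Klrd1 next at 398, Klrc1 at 372, Klrb1c at 255 and Klrk1 at 145. In IL4-/-KO it was 5233 for Klrg1, followed by Klrc1 at 1424, Klrd1 at 1282 and Klrk1 at 1148. Klrc2 and Ncr1 reached at most 89.2 and 39.2 per kilobase in any replicate.

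The study's double mutant asks whether the Il4 background alters what Tgfbr2 deletion does. The contrast of IL4-/-KO with KO is not a deletion contrast. It shares its KO libraries with KO minus WT and its IL4-/-KO libraries with IL4-/-KO minus IL4-/-. Its p-values and counts are therefore not independent of the choice of genes. Of the 8 genes, 6 were higher in both IL4-/-KO replicates than in both KO replicates, namely Klrg1, Klrk1, Klrd1, Klrc1, Klrc2 and Klri2, against 22.8% of the 14473 genes tested. The difference was 3.12 ± 0.59 for Klrk1 (95% interval 1.75 to 4.49) and 4.76 ± 0.85 for Klri2 (2.79 to 6.74). It was 1.91 ± 0.52 for Klrd1, 2.67 ± 1.07 for Klrc1 and 3.79 ± 1.33 for Klrc2. It was 0.84 ± 0.997 for Klrb1c and 0.41 ± 2.16 for Ncr1, and the Ncr1 difference was -0.66 without the repeat library of KO replicate 2.

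By limma, 0 of the 8 passed adjustment over all genes, and the background was also 0 of 14473 genes (0%). Adjusted p was 0.256 for Klrk1 and Klri2, 0.286 for Klrd1, 0.372 for Klrc1, 0.328 for Klrc2, 0.769 for Klrb1c and 0.957 for Ncr1. At an unadjusted p under 0.05, 6 of the 8 were higher in IL4-/-KO, against 10.1% of all genes in that direction. Nothing is read from that count, because the contrast shares libraries with those known when the genes were chosen. For edgeR and DESeq2 the recovered reads of first and repeat KO libraries were added up, so the deeper repeat libraries weighed more. By edgeR 0 genes were called. DESeq2 called 285 of 14045 genes higher (2.03%), and these included Klrk1 (log2 difference 3.11, adjusted p = 0.000323) and Klri2 (3.65, adjusted p = 0.00197).

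The size of these differences depended on the KO libraries used. With the first KO libraries alone, Klri2 was 2.48 higher in IL4-/-KO, Klrk1 2.34, Klrd1 1.25, Klrc1 1.40 and Klrc2 2.27. With the repeat libraries alone, which are close to IL4-/-KO in reads but detected 12891 and 12459 genes against 14394 and 14227, the values were 7.05, 3.89, 2.58, 3.94 and 5.30 in the same order. Without only the repeat library of KO replicate 2 they were 2.94, 2.67, 1.31, 1.54 and 3.30. Limma called none of these in any of the 3 forms. Klrg1 moved little, at 0.87, 1.01 and 0.90.

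**Figure D2:**
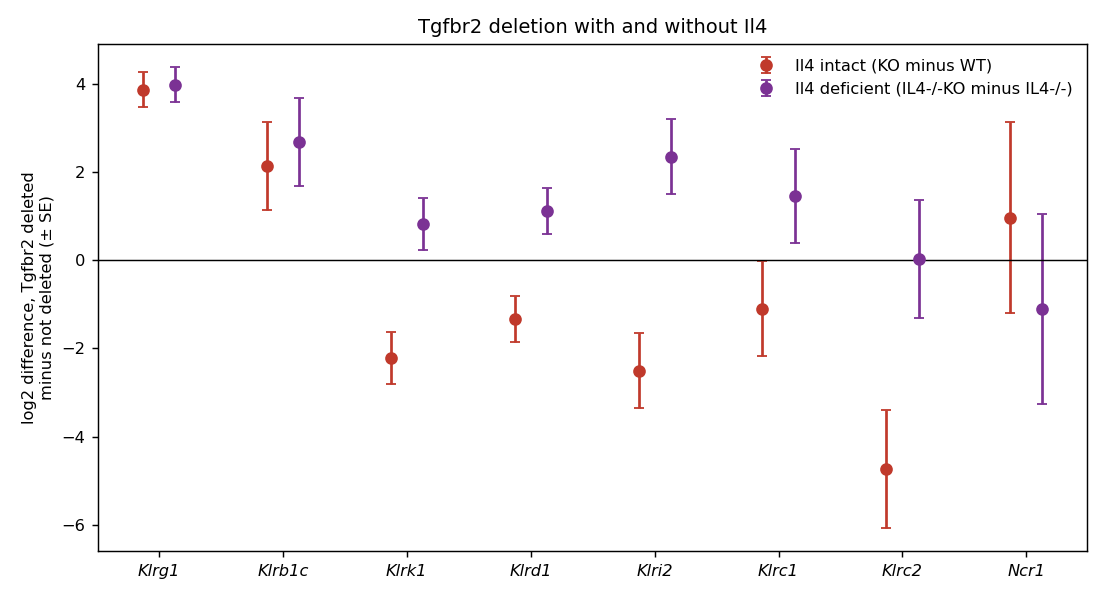
The log2 difference between Tgfbr2-deleted and undeleted cells (± SE, n = 2 per group) for each of the 8 genes, in red with Il4 intact and in purple with Il4 deficient. Klrg1 and Klrb1c lie above 0 on both backgrounds, while Klrk1, Klrd1, Klri2 and Klrc1 lie below 0 in red and above 0 in purple.

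Klrk1, Klrd1 and Klri2 were lower in both KO replicates than in both WT replicates and higher in both IL4-/-KO replicates than in both IL4-/- replicates. This pattern was met by 3 of the 8 genes and by 2.07% of all genes tested, and since it is made of the deletion contrasts known when the genes were chosen, nothing is read from that count. For Klri2 it held for the replicate means and not library by library. The interaction was 3.03 ± 0.83 for Klrk1 (95% interval 1.09 to 4.96), 2.45 ± 0.74 for Klrd1 (0.73 to 4.17) and 4.85 ± 1.20 for Klri2 (2.05 to 7.65), each with a limma adjusted p of 0.967. It was 2.55 ± 1.51 for Klrc1 and 4.75 ± 1.89 for Klrc2, with the same adjusted p, and -2.07 ± 3.05 for Ncr1. Of the 8 genes, 4 were positive at an unadjusted p under 0.05, against 2.31% of all genes, a count from which nothing is read for the reason given above, and 0 of 14473 genes (0%) passed adjustment. DESeq2 called 35 genes for the interaction and edgeR 0.

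The KO side of the pattern moved with the library. With the first KO libraries alone, which are close to WT in reads, KO minus WT was -1.43 for Klrk1, -0.67 for Klrd1, -0.22 for Klri2 and -3.21 for Klrc2. With the repeat libraries alone it was -2.98, -1.99, -4.80 and -6.25. Klrc1 was 0.17 with the first and -2.36 with the repeat libraries.

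Il4 loss without Tgfbr2 deletion gave no call among the 8. IL4-/- minus WT was 0.09 ± 0.59 for Klrk1, -0.54 ± 0.52 for Klrd1, 0.12 ± 1.07 for Klrc1, -0.96 ± 1.33 for Klrc2, -0.09 ± 0.85 for Klri2, 0.30 ± 0.997 for Klrb1c and 2.48 ± 2.16 for Ncr1. By limma 0% of all genes passed adjustment, 3.88% had an unadjusted p under 0.05 with none of the 8 among them, and DESeq2 called 31 genes and edgeR 0. The WT libraries were all of the shallow set and the IL4-/- libraries all of the deep set, so genotype and library set cannot be told apart here.

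The other lectin genes of the NK gene complex were followed as a list of 24, of which 20 were in the table and 15 passed the filter on low values. Members of the list include the Klra genes, which encode the Ly49 receptors for class I molecules. By mean over both backgrounds, 12 of the 15 were lower with Tgfbr2 deleted and 3 were higher, with a median log2 difference of -1.13 against -0.15 over all genes, and limma called 0. With quantile normalization the split was 9 lower and 6 higher, with a median of -0.53. The median was -2.42 for KO minus WT and 0.26 for IL4-/-KO minus IL4-/-. In IL4-/-KO minus KO it was 2.14, with 12 of 15 above 0, against 0.05 over all genes.

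Klra7 (Ly49G) had 39.5 and 717 normalized counts for WT, 0 and 0 in KO replicate 1, 15.8 and 0 in KO replicate 2, 111 and 30.3 in IL4-/-, and 70.5 and 8.67 in IL4-/-KO. Its mean effect of deletion was -3.78 ± 1.28 (limma adjusted p = 0.414), and WT replicate 2 stood far above every other library. Klra5 had the same high library, 335 against 52.7 in WT replicate 1, 0 to 1.47 in KO, 80.2 and 18.0 in IL4-/-, and 175 and 0 in IL4-/-KO (-4.16 ± 1.68, adjusted p = 0.458). Klrb1f, an activating lectin receptor whose ligand is the product of Clec2i, had 109 and 467 in WT, 181 to 592 in KO, 173 and 245 in IL4-/-, and 879 and 658 in IL4-/-KO. Its mean effect was 1.20 ± 0.57 (adjusted p = 0.5).

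**Figure D3:**
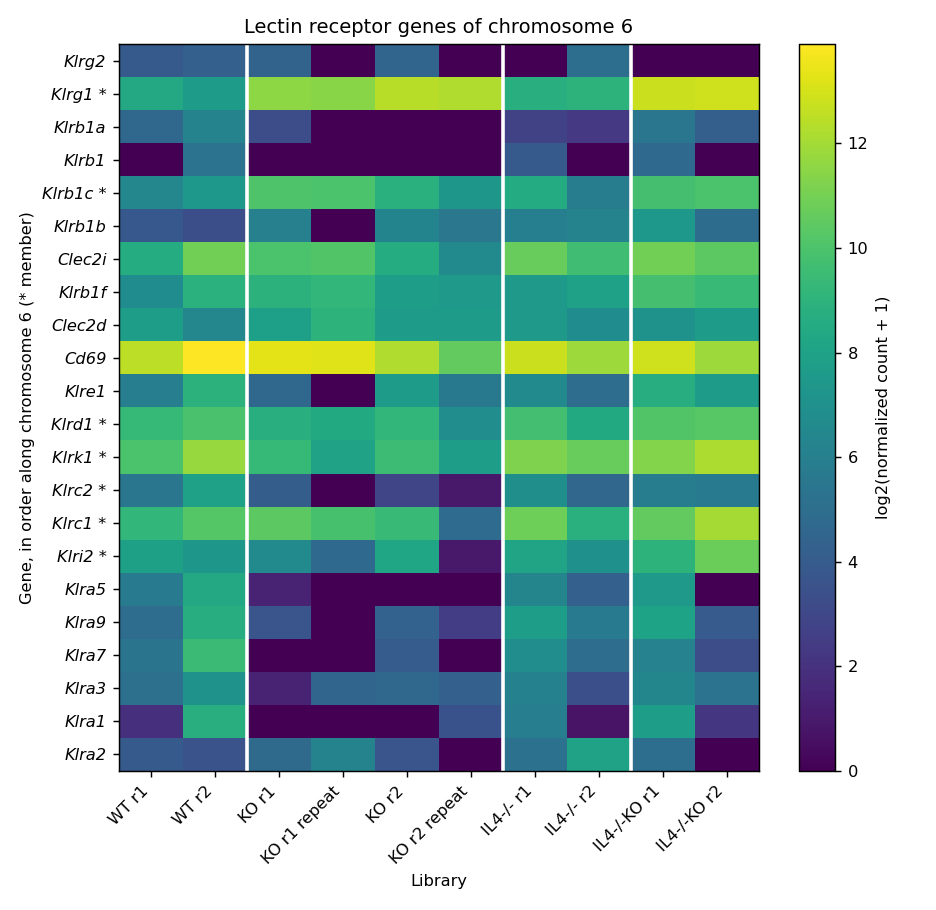
log2(normalized count + 1) of the 22 lectin receptor genes of chromosome 6 that passed the filter, in gene order from top to bottom, in each of the 10 libraries, with white lines between genotypes. Within its own row Klrg1 is brightest in the KO and IL4-/-KO columns, and Klra5 is at 0 to 1.47 normalized counts in the 4 KO columns. In those columns Klra2 is at 0 to 73.9 and Klra3 at 1.47 to 25.0, and IL4-/- replicate 2 is at 9.66 for Klra3.

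Markers of NK cells and type 1 innate lymphoid cells also varied between libraries. Of the list, 12 of 15 were in the table, and their summed level was 5917 to 17610 normalized counts for WT, 4527 to 83900 in KO, 7723 to 12960 in IL4-/- and 11000 to 21310 in IL4-/-KO. Gzmb, which activated T cells also express, made up most of the highest sum, at 80953 in the first library of KO replicate 1. Without Gzmb, a sum looked at after its values were seen, the other 11 markers gave 2135 and 7005 in WT, 2090 to 3129 in KO, 5616 and 5781 in IL4-/-, and 5558 and 3113 in IL4-/-KO. WT replicate 2 was highest, 3 of the 4 KO libraries lay above WT replicate 1, and IL4-/-KO replicate 2 lay within the KO range. A sum of the 8 Klra genes in the table, also looked at after its values were seen, differed. It gave 175 and 2033 in WT, 33.1 to 96.0 in KO, 570 and 373 in IL4-/-, and 877 and 65.0 in IL4-/-KO. By the Klra sum all 4 KO libraries lay below WT and IL4-/-, and IL4-/-KO replicate 2 again lay within the KO range. Of the 8 Klra genes, 3 to 6 were at 0 in the KO libraries. The sum of 11 markers includes Tyrobp and Fcer1g, at 1744 and 1928 in IL4-/- replicate 2 and at 445 and 1681 in WT replicate 2. IL4-/- replicate 2 also had the highest sum of macrophage markers, 54530, and the part of such cells in the NK sum was not tested. Klra7 was at 0 in 3 of the 4 KO libraries, and Klra9, Klre1 and Ncam1 were also at 0 in the repeat library of KO replicate 1. Klra7, Klra9, Klre1 and Klrb1f stand both in this list and in the lectin list. The part of such cells in the levels of Klrk1, Klrd1, Klri2 and the Klrc genes was not tested, and in bulk RNA fewer cells of a type and less RNA per cell cannot be told apart.

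Set side by side, the 4 KO libraries held 2745 to 5493 normalized counts of Klrg1 and 2090 to 3129 of the NK sum without Gzmb. IL4-/-KO held 7198 and 7600 of Klrg1 with sums of 5558 and 3113, and IL4-/- held 428.5 and 515 with sums of 5616 and 5781. WT replicate 1 was low in both, at 339 and 2135. WT replicate 2, with 7005 the highest by that sum, had the lowest Klrg1 of all libraries, and the relation of the measures was not tested. The CD8 T cell markers, 2 of 2 in the table, summed to 694 to 1126 in WT, 234 to 524 in KO, 115 to 199 in IL4-/- and 278 to 341 in IL4-/-KO, with Cd8a at 0 in IL4-/- replicate 1. The markers of NKT and innate-like T cells, 2 of 3 in the table, summed to 441 to 1726, 122 to 741, 113 to 660 and 163 to 591 in the same order, with Zbtb16 at 0 in the repeat library of KO replicate 2. Core T cell markers, 7 of 8 in the table, summed to 85980 to 125400, 153800 to 171300, 82170 to 140900 and 135700 to 143700.

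Other cells that can carry KLRG1 include regulatory T cells and type 2 innate lymphoid cells. Markers of regulatory T cells, 5 of 5 in the table, summed to 6552 to 10710 in WT, 8501 to 45980 in KO, 10570 to 11470 in IL4-/- and 9368 to 28250 in IL4-/-KO. Markers of type 2 innate lymphoid cells, also 5 of 5, summed to 8097 to 10350, 9885 to 12410, 10760 to 13240 and 14050 to 15670 in the same order. In IL4-/-KO most of that sum was Rora, at 8816 and 8391, and Gata3, at 5513 and 4985. Arg1 did not follow the sum, with its highest value in WT replicate 1, 3060, against 162 and 213 in IL4-/-KO. Foxp3, the defining regulatory T cell factor, had 437 and 182 for WT, 330 to 3386 for KO, 1415 and 1141 for IL4-/-, and 5327 and 1511 for IL4-/-KO. Il1rl1, the IL-33 receptor of type 2 innate lymphoid cells and some T cells, had 290 and 236, 612 to 1681, 325 and 546, and 1004 and 460 in that order, and Il17rb was at 0 in WT replicate 2, IL4-/-KO replicate 2 and the repeat library of KO replicate 2. The cells were sorted for CD4 and against CD25, and how far this removed either type was not tested. The highest regulatory T cell sum was mostly Ctla4, at 40185 in the first library of KO replicate 1, where Foxp3 was 413. The part of such cells in the level of Klrg1 was not tested. Sums of macrophage markers (8 of 8) were 2364 to 7845, 2989 to 7953, 5933 to 54530 and 3583 to 11250, and those of B cell markers (4 of 4) stayed between 63.2 and 267. Neutrophil markers (5 of 5) summed to 133 to 509.8, 356 to 6083, 109 to 872 and 154 to 420.3, and of the gamma delta T cell list only Sox13 (1 of 6) was in the table, at 0 to 962.

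Receptors of this kind signal through adaptors. Of 13 adaptor and signalling genes, all tested, 8 were higher and 5 lower with Tgfbr2 deleted by the mean over both backgrounds, and limma called 0, with a median of 0.20. Hcst, which encodes the DAP10 adaptor of NKG2D, had 1834 and 1071 normalized counts for WT, 2582 to 3202 in KO, 2517 and 944 in IL4-/-, and 2606 and 2455 in IL4-/-KO (mean effect 0.89 ± 0.34, adjusted p = 0.451). Cd247, the CD3 zeta chain that serves the T cell receptor and NKp46, gave 0.68 ± 0.24 (adjusted p = 0.426). Zap70, the kinase that binds it, gave 0.68 ± 0.27 (adjusted p = 0.457). Tyrobp, the DAP12 adaptor, gave -0.37 ± 0.57 (adjusted p = 0.818) and Fcer1g, an adaptor used by NK1.1, gave -1.0 ± 0.67 (adjusted p = 0.595). Inpp5d, the SHIP-1 phosphatase recruited by KLRG1, gave -0.04 ± 0.27 (adjusted p = 0.966), and Ptpn6, the phosphatase SHP-1, gave 0.20 ± 0.24 (adjusted p = 0.769).

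Of 14 ligand genes, 8 were in the table and 7 tested. By the mean over both backgrounds 3 were higher and 4 lower with Tgfbr2 deleted, with a median of -0.71 and 0 calls. Cdh1 encodes E-cadherin, a ligand of KLRG1, and had 11251 and 8116 normalized counts for WT, 3641 to 6307 in KO, 7450 and 8747 in IL4-/-, and 1109.9 and 2853 in IL4-/-KO. All libraries with the deletion lay below those without it, and the mean effect was -1.58 ± 0.34 (limma adjusted p = 0.258). The epithelial marker list, which includes Cdh1, summed to 19820 to 154800 in WT, 56450 to 114600 in KO, 18490 to 42870 in IL4-/- and 12350 to 26440 in IL4-/-KO, and its part in Cdh1 was not tested. H2-T23, which encodes Qa-1, the ligand of CD94 with NKG2A or NKG2C, gave 0.61 ± 0.25 (adjusted p = 0.463). Cdh2, encoding N-cadherin, had 5.27 and 22.4 normalized counts for WT, 0 in all 4 KO libraries, 0 and 49.0 in IL4-/-, and 0 and 0 in IL4-/-KO. Its mean effect was -3.21 ± 1.45 (limma adjusted p = 0.49). It lay near the limit of detection, so little can be read from that difference.

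Over all genes, limma called 3 for the mean effect of deletion (0.0207%), namely Klrg1 and Mmp9 higher and Ahr lower. Klrg1 was 1 of the 8 receptor genes, and since the rule used this contrast nothing is read from its count. Replicates did not overlap, with all 4 deleted replicates above all 4 others, for Klrg1 alone of the 8 and for 2.98% of all genes. The reverse held for 0 of the 8 and for 2% of all genes, and nothing is read from either count for the same reason. Ahr, a ligand-activated transcription factor with a role in tissue-resident lymphocytes, fell by 2.53 ± 0.25 on the log2 scale (limma adjusted p = 0.0422), with 3209 and 4511 normalized counts for WT, 2436.5 and 3200.2 for IL4-/-, 440 to 922 for KO, and 595 and 402 for IL4-/-KO. That call ended in 13 of 21 alternatives, among them each fit with 1 of the 8 replicates left out.

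Genes that accompany Klrg1 in effector differentiation were read as lists. Of 10 transcription regulators, 9 were higher and 1 lower, with a median of 0.67 and 0 calls. Tbx21, encoding T-bet, had 2787 and 9708 normalized counts for WT, 10765 to 17646 in KO, 4256 and 4670.1 in IL4-/-, and 10174 and 12626 in IL4-/-KO (1.36 ± 0.37, adjusted p = 0.349). Batf, an AP-1 factor of activated T cells, gave 1.82 ± 0.32 (adjusted p = 0.233), and Id2 gave 0.77 ± 0.32 (adjusted p = 0.473).

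Of 11 effector products and trafficking genes, 8 were higher and 3 lower, with a median of 0.86 and 0 calls. S1pr5, a receptor for tissue exit of effector and NK cells, had 27.7 and 21.1 normalized counts for WT, 66.2 to 1648 in KO, 35.6 and 175 in IL4-/-, and 981 and 2062 in IL4-/-KO (3.68 ± 0.91, adjusted p = 0.316). The chemokine gene Ccl5 gave 1.70 ± 0.45 (adjusted p = 0.347) and the granzyme gene Gzma 0.74 ± 0.29 (adjusted p = 0.452). Of 10 memory precursor and naive genes, 1 was higher and 9 lower, with a median of -0.75 and 0 calls. Ccr7, a chemokine receptor for lymph node homing, gave -1.19 ± 0.50 (limma adjusted p = 0.473). Of 6 tissue residence genes, all 6 were lower by the mean over both backgrounds, with a median of -2.03 against -0.15 over all genes, and Ahr was the 1 called. The median was -2.69 for KO minus WT, with all 6 lower, and -0.93 for IL4-/-KO minus IL4-/-, with 4 lower and 2 higher.

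The genes most like Klrg1 were those with the smallest root mean square difference in log2(normalized count + 1) over the 8 replicates, each gene centred on its own mean. The nearest was Nrn1, which encodes neuritin, at 0.54, followed by Mmp9, a secreted gelatinase, at 0.70, and Ptpn5, a tyrosine phosphatase, at 0.71. Neutrophils also express Mmp9, and the part of the neutrophil sums given above in its level was not tested. Next came Ces2c at 0.83, D930028M14Rik at 0.86 and Noxred1 at 0.87. The nearest mirror images were Gm6455 at 0.58, Cfap43 at 0.62 and E030013I19Rik at 0.62. Nrn1 had 92.2 and 34.3 normalized counts for WT, 616 to 1718 in KO, 238 and 179 in IL4-/-, and 2174 and 1334 in IL4-/-KO. Its mean effect of deletion was 3.56 ± 0.42 (limma adjusted p = 0.087), and its groups did not overlap across the deletion. Nrn1 was picked for its likeness to Klrg1 in these same replicates, so nothing is read from that p-value or that separation.

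The other receptor genes were left out of that ranking, and none lay as near to Klrg1 as Noxred1 at 0.87. Klrb1c was at 1.35, with 59 of 14465 other genes nearer. Klrd1 was at 2.19 with 6620 genes nearer, Klrc1 at 2.34, Klri2 at 2.54, Klrk1 at 2.55, Ncr1 at 2.80 and Klrc2 at 3.52 with 13520 genes nearer. These distances describe the samples that also served in choosing the 8 genes, and they carry no test.

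**Figure D4:**
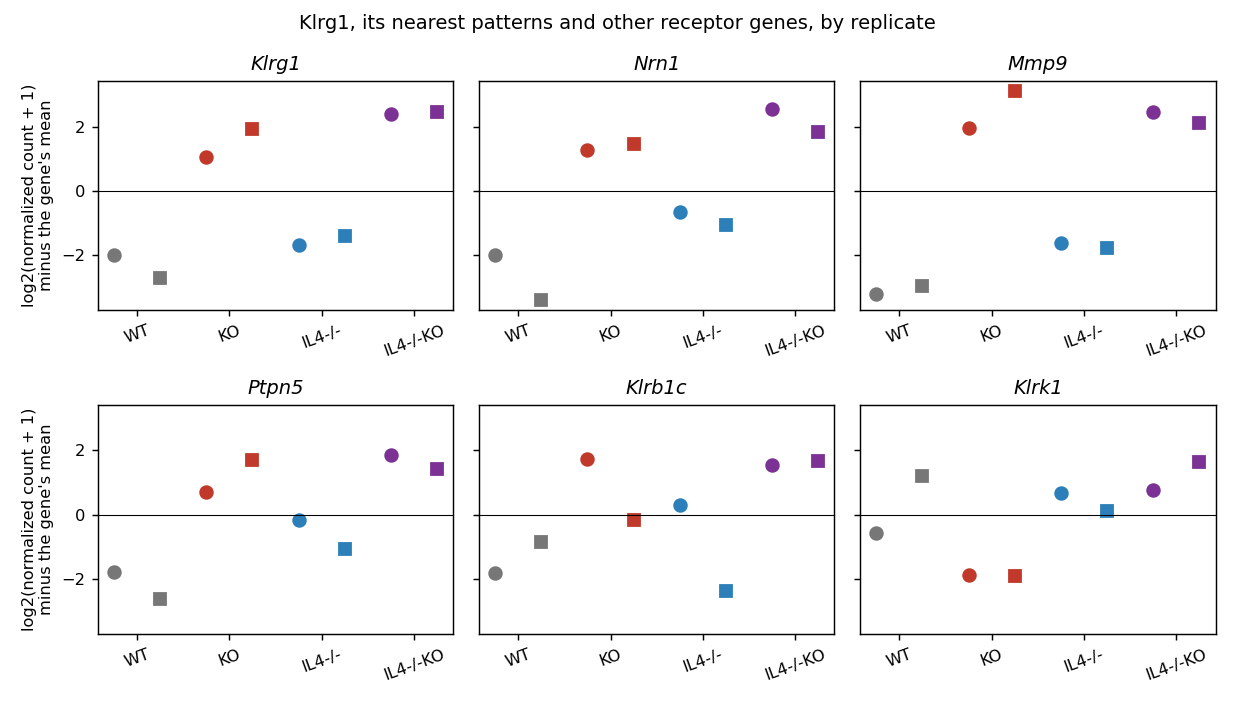
log2(normalized count + 1) minus the gene's own mean in each of the 8 replicates (circles replicate 1, squares replicate 2, KO libraries averaged) for Klrg1, its 3 nearest genes, Klrb1c and Klrk1. Nrn1, Mmp9 and Ptpn5 lie above their mean in KO and IL4-/-KO, as Klrg1 does (distances 0.54, 0.70 and 0.71), and Klrk1 is lowest in KO (distance 2.55).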

How the data were processed

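RNA sequencing was carried out on 10 libraries of 8 replicates. Per the labels' protocols, RNA was amplified with SMART-Seq v4, which counts no molecular identifiers. Per the submitters' processing notes, bcl2fastq 2.18.0, STAR, DESeq2 and the mm10 build were used. The read counter, its annotation and its use of strand are not given in the sources used here. The deposited signal per gene was the authors' read count after division by a factor common to the library. Every value (100%) was a whole number of reads within 0.001, so reads were recovered from the steps. The 7 rows without a gene name, at most 0.0205% of a library, were left out.

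Genes that reached 10 normalized counts in 2 or more replicates were tested (14473, all 8 receptor genes among them) with limma 3.58.1 in R 4.3.3. The test was two-sided on log2(normalized count + 1), with the variance trended on the mean, and Benjamini-Hochberg adjustment per comparison at 0.05. Fold changes on this scale understate those of low genes. For limma, KO libraries of 1 RNA were averaged on the log2 scale, and all 4 genotypes shared 1 estimate of spread. For edgeR and DESeq2 the reads of such libraries were added up, so the deeper repeat libraries weighed more. For the mean deletion effect, edgeR 4.0.16 on recovered reads called 2 genes and DESeq2 1.42.0 called 331. The script was tested on simulated data. The receptor genes, the 18 gene lists and the rule for named genes (all 8 receptors, the nearest genes to Klrg1, and from each list those past the threshold or at most 3 by smallest p, plus ligands, adaptors and regulators) were chosen with earlier results of these data known. The values of 1 gene that the rule named are not reported here. Promoters came from RefSeq, gene positions and transcripts from GENCODE. Alternatives covered pseudocount, filter, scaling, trend, KO libraries, replicate block, count tools and each replicate left out. Python 3.11.15 and matplotlib 3.10.9 drew the plots.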

Additional observations from a re-analysis of the deposited data

Results flagged for a closer look

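For 3 receptor genes the difference made by Tgfbr2 deletion pointed opposite ways on the Il4 backgrounds, with both replicates of each genotype on the same side. The interaction was 3.03 on the log2 scale for Klrk1, 2.45 for Klrd1 and 4.85 for Klri2. Each was tested and did not pass adjustment over all genes (limma adjusted p = 0.967). The differences it is made from were known when the genes were chosen, so this is a description.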

How the results depend on the processing

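The number of genes called for the mean deletion effect was 3. It was 331 with DESeq2, 8 with quantile normalization, 0 without a variance trend and 1 with the replicate block, and it ran from 0 to 4 with 1 replicate left out (0 without either IL4-/- or either IL4-/-KO replicate). The cause was not tested. For IL4-/-KO minus KO, IL4-/- minus WT and the interaction, where limma called 0, DESeq2 called 393, 31 and 35, and IL4-/- minus WT gave 7 without a variance trend. With 1 replicate left out these stayed at 0, the lone sample being assumed to vary like the other groups. Replicate numbers did not pair the samples (correlations of deviations from -0.358 to 0.236), and the replicate block left these counts at 0. Quantile normalization moved the median log2 difference of all genes from -0.152 to 0.0479 for the mean deletion effect and from -0.204 to 0.0513 for KO minus WT.

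Of 1485 repeats for single genes, 72 changed sign, 28 of them for tested values and 44 for receptor differences across the deletion that were not tested. In IL4-/- minus WT, Klrk1 became -0.16 with edgeR and -0.156 with DESeq2, Klri2 0.00351 with edgeR and Klrb1c -0.147 with quantile normalization. The Klrb1c interaction became -0.27 with edgeR and -0.268 with DESeq2. Ncr1 in IL4-/-KO minus KO became -0.27 with quantile normalization and, in an alternative added after seeing the data, -0.664 without the repeat library of KO replicate 2. With 1 replicate left out, IL4-/- minus WT ran from -0.803 to 0.981 for Klrk1, -1.19 to 0.115 for Klrd1, -0.9 to 1.14 for Klrc1, -2.21 to 0.287 for Klrc2, -0.662 to 0.488 for Klri2 and -1.05 to 1.64 for Klrb1c. IL4-/-KO minus KO ran from -0.121 to 1.8 for Klrb1c, -2.54 to 3.35 for Ncr1 and -0.326 to 7.13 for Klra5. The interaction ran from -0.321 to 0.543 for Klrg1, -0.807 to 1.89 for Klrb1c and -5.02 to 0.877 for Ncr1. The depth limits what can be said of Ncr1, and of Klrc2 in KO, which lay near the limit of detection.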
